A study of Homo sapiens with 6 samples.

Results

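The genes described here are 40 genes of glucose use and the response to low oxygen, among 17081 genes counted by RNA-seq in 6 tumour pieces. They were taken by symbol from a written list of glucose transporters, glycolytic enzymes, lactate exporters, hypoxia-inducible factors and targets of those factors. The rule itself uses no measured value, but the list was chosen with earlier results of these data known. All 40 were in the count table, and 38 passed the filter on low counts, while CA9 and EGLN3 did not. The tumours grew from DMS114 cells, a human line established from small cell lung cancer, in a model of spread along the sciatic nerve. The proximal invaded region gave 3 libraries and the distal one 3, and the labels name no treatment, genotype, host animal or day, so that region is the only difference they give. The design of the series asks which tumour genes differ between these regions. Nothing in the labels tells whether the 3 samples of a region are 3 animals, and p-values therefore measure only how these samples spread, possibly for technical reasons.

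Cells take up glucose through SLC2A transporters, trap it by phosphorylation and split it to pyruvate, which either enters mitochondria or is reduced to lactate and exported. Several steps can be run by more than 1 gene product, and tumours are known for using particular isoforms of these enzymes. When oxygen is low, the α subunits of hypoxia-inducible factors (HIF) escape hydroxylation by EGLN enzymes and removal by VHL. They then pair with ARNT, bind DNA at a short core motif and raise transcription of glycolytic and other target genes. The messenger RNA of HIF1A itself is a poor gauge of this pathway, since control is largely at the protein level.

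Total counts ran from 16171106 to 26116191 per library. As a check of the label, factors that mark small cell subtypes were read unevenly. YAP1 had 167 to 187 CPM (counts per 1000000 of the TMM-scaled library total), while POU2F3 (0 to 0.247 CPM) was close to 0, and NEUROD1 was at most 0.618 CPM outside distal 3, which had 6.47 CPM. The neuroendocrine vesicle protein SYP had 56.9 to 63.8 CPM and the granule protein CHGA 6.34 to 7.57 CPM. Distal 3 and proximal 3 stood apart by skeletal muscle reads. The summed level of 22 muscle markers reached 2814 CPM in distal 3, was 417 CPM in proximal 3 and lay at 25.9 to 60.8 CPM elsewhere. Of 7 endothelial markers in the table none was read above 1.16 CPM, and PECAM1 was at 0 in 5 libraries. In pieces of tissue like these, fewer cells of a type and less RNA per cell cannot be told apart.

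ACGTG is a core sequence of the hypoxia response element, and with its reverse complement it was the only form searched. The genes shown are glycolytic and other HIF targets whose values are given in full below, from LDHA to the barely read CA9. Stretches of their promoters follow. Each is 30 bases, 5′ to 3′ on the gene's strand, from the 250 bases before a RefSeq start site (GRCh38.p14), and capitals mark ACGTG or its reverse complement CACGT. Those of LDHA, PDK1, P4HA1, ANKRD37 and CA9 also lie wholly within exons of some transcript in GENCODE release 29. The PDK1, PFKFB3 and SLC16A3 stretches each precede a start site inside the gene rather than its first. The sequence CACGTG reads the same on both strands and counts as a match on each.

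PGK1, chrX:78104043-78104072, + strand: cggACGTGacaaacggaagccgCACGTctc

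LDHA, chr11:18394468-18394497, + strand: ccgactcaCACGTGggttcccgCACGTccg

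PDK1, chr2:172556060-172556089, + strand: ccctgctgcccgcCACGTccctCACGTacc

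PFKFB3, chr10:6202812-6202841, + strand: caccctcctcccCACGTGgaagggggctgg

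P4HA1, chr10:73096936-73096965, - strand: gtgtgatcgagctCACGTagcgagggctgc

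BNIP3, chr10:131982040-131982069, - strand: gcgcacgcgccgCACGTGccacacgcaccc

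DDIT4, chr10:72273786-72273815, + strand: gagaacgttgcttACGTGcgcccggagtcc

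ANKRD37, chr4:185396673-185396702, + strand: gggctcCACGTGccagtgtttgtgtACGTG

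CA9, chr9:35673897-35673926, + strand: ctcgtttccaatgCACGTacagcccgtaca

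SLC16A3, chr17:82228968-82228997, + strand: gcggtgACGTGcgcgggggACGTGccgcgc

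The promoter table held 34 of the 40 members, and 20 of them (58.8%) had at least 1 match in the 250 bases before a start site. Of the 10675 tested genes with an entry, a match was found for 28.8%. Counted by window of the same length, since some genes have several starts, 37.1% of 62 member windows and 22% of 15723 windows of tested genes had one. Members with no match in any window included HK1, P4HA2, ADM, KDM3A, EGLN3, SLC2A1 and PKM. A match shows only that these letters are present, and the members were listed partly as known HIF targets. Other forms of the core were not searched, so a member with no match may still hold one.

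**Figure D1:**
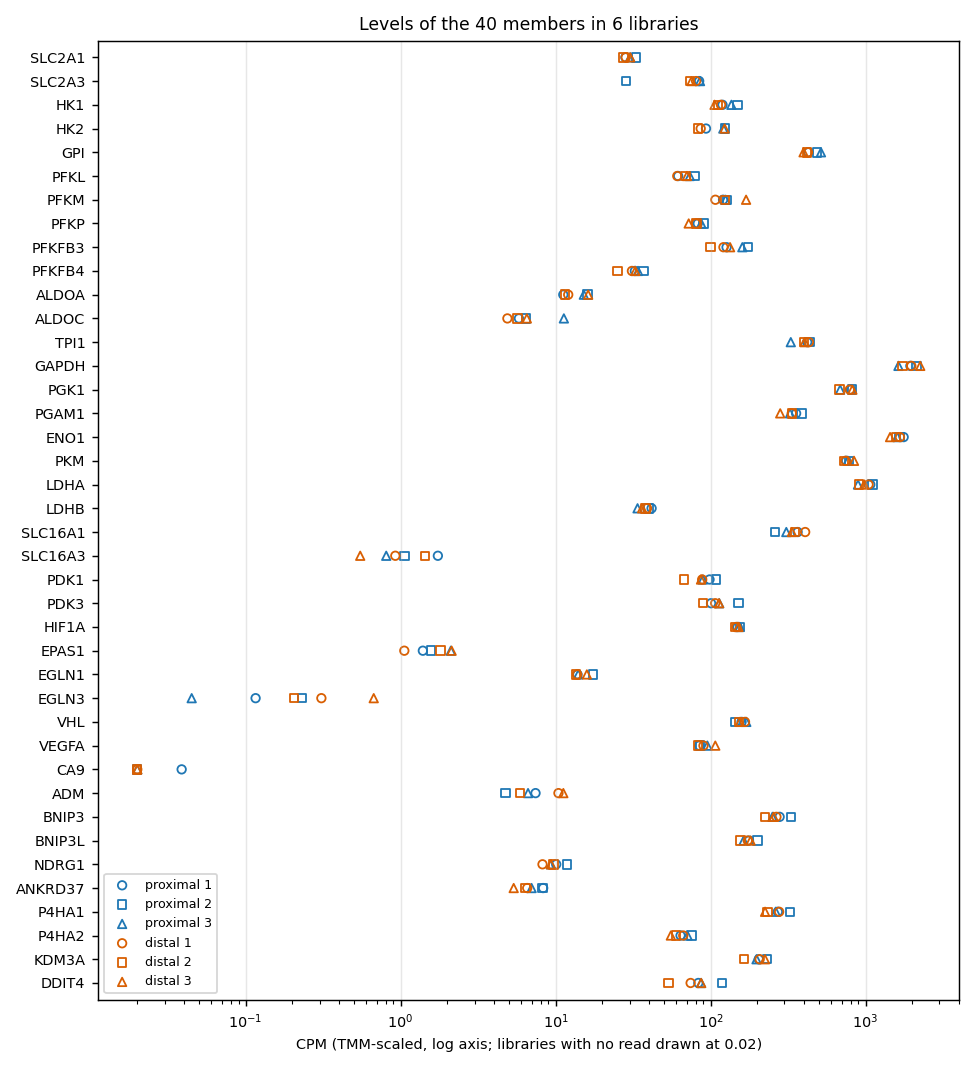
CPM of each of the 40 members (rows, in order along the pathway) on a log axis, with blue symbols for the 3 proximal and orange for the 3 distal libraries; libraries with no read are drawn at 0.02. GAPDH and ENO1 lie above 1000 CPM in every library, SLC16A3, EPAS1, EGLN3 and CA9 lie at 2.13 CPM or below, and the SLC2A3 symbol of proximal 2 lies apart from the other 5.

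For glucose uptake, SLC2A3, a high-affinity transporter typical of neurons (chromosome 12, 7919230 to 7936187, GRCh38), was the main transporter in 5 libraries but not in proximal 2. SLC2A3 had 84.4, 28.5 and 85.5 CPM proximally and 80.7, 73.9 and 75.3 CPM distally. Proximal 2 alone was low, and the highest library had 3.00 times its level. SLC2A1, the widespread basal transporter (chromosome 1, 42925353 to 42958868), had 28.2, 33.1 and 30.3 CPM proximally and 28.4, 27.4 and 30.3 CPM distally, with proximal 2 the highest. Per kilobase of transcript, SLC2A3 made up 44.7% of the pair in proximal 2 and 70.0% to 73.7% in the other libraries. The log2 fold change of SLC2A3, distal minus proximal, was 0.21 (SE 0.44), and without proximal 2 it was -0.15. SLC2A3 has 3 processed copies named after it in GENCODE release 29 and a near-identical relative, SLC2A14 (at most 1 read per library), so reads could be shared.

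Hexokinases commit glucose to the cell by phosphorylation, and both the constitutive HK1 and the inducible HK2 were read. HK1 (chromosome 10, 69270000 to 69401882) had 119, 149.5 and 136 CPM proximally and 117, 112 and 106 CPM distally, and the groups did not overlap. HK2 (chromosome 2, 74834127 to 74893359) had 93.5, 124 and 121 CPM proximally and 86.4, 82.9 and 123 CPM distally, so its distal 3 value lay among the high proximal ones. HK1 made up 58.0% to 68.4% of the pair per kilobase of transcript, lowest in distal 3. HKDC1, a further hexokinase family member, had at most 1 read in any library.

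Phosphofructokinase, the committed step of glycolysis, was read from all 3 of its genes in comparable amounts. PFKM, the muscle isoform, made up 42.1% ± 4.26 of the summed level per kilobase (SD, n = 6), PFKP, the platelet isoform, 32.9% ± 3.43, and PFKL, the liver isoform, 25.0% ± 1.41. PFKM (chromosome 12, 48105353 to 48146404) had 120.4, 128 and 125 CPM proximally and 107, 124 and 169.6 CPM distally. Only distal 3, the library with the most muscle reads, lay above 128 CPM, and the share of PFKM there was 50.6% against 39.4% to 41.6% elsewhere. The log2 fold change of PFKM was 0.10 (SE 0.15), or -0.11 without distal 3, and the part of muscle RNA in it was not tested. PFKP had 82.7, 89.9 and 87.0 CPM proximally and 80.6, 81.0 and 72.3 CPM distally, which did not overlap, and PFKL 61.0 to 78.8 CPM with overlap.

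The PFKFB enzymes make fructose 2,6-bisphosphate, the strongest activator of phosphofructokinase. PFKFB3 (chromosome 10, 6144921 to 6326637) had 127, 175 and 160.4 CPM proximally and 121, 99.8 and 134 CPM distally, highest in proximal 2 and lowest in distal 2. PFKFB4 showed the same order of extremes at a lower level, from 25.0 CPM in distal 2 to 36.8 CPM in proximal 2. PFKFB3 made up 75.7% to 79.1% of this pair per kilobase. PFKFB2, the heart isoform and not a member, had 50.4 to 64.2 CPM.

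The middle and lower enzymes of the pathway were the most abundant members per kilobase of transcript, from 157 CPM for PGK1 to 1038 CPM for GAPDH. GAPDH, which makes NADH and a high-energy phosphate, had 1947, 2139.8 and 1631 CPM proximally and 1974, 1728 and 2255 CPM distally. ENO1, the widespread enolase, had 1440.1 to 1762 CPM, PKM (pyruvate kinase) 728 to 843 CPM, TPI1 329 to 433 CPM and PGAM1 282 to 386 CPM. PGK1, which makes the first ATP of the pathway, had 805, 819 and 686 CPM proximally and 791, 677 and 823 CPM distally. The highest of the 6 libraries exceeded the lowest by 1.16 times for PKM and 1.38 times for GAPDH, and the groups overlapped for each of these 6 genes. GPI, which interconverts the hexose phosphates, had 428, 486 and 516 CPM proximally and 425, 420.4 and 398 CPM distally, with no overlap. Many of these genes have processed copies that could take or lend reads, 62 named after GAPDH and 13 after PGAM1 in GENCODE release 29.

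Other isoforms of these steps stood lower. ENO2, the neuronal enolase often used as a neuroendocrine marker, had 22.4 to 30.97 CPM in 5 libraries and 50.9 CPM in distal 3. ENO3, the muscle enolase, had 18.9, 18.6 and 37.1 CPM proximally and 19.6, 23.3 and 128 CPM distally, so that it was highest in the 2 libraries with the most muscle reads, whose part was not tested. Its log2 fold change was 1.19 (SE 0.94), or -0.21 without distal 3. Per kilobase of transcript the mean level of ENO1 was 689.6 CPM, that of ENO3 26.9 CPM and that of ENO2 10.8 CPM.

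Aldolase, which splits the 6-carbon sugar, was read far below the enzymes on either side of it. ALDOA, the main aldolase of most tissues (chromosome 16, 30064279 to 30070420), had 11.2, 16.1 and 15.2 CPM proximally and 12.1, 11.5 and 16.2 CPM distally. The brain isoform ALDOC had 4.89 to 6.53 CPM in 5 libraries and 11.3 CPM in proximal 3. Per kilobase of transcript the mean level was 8.56 CPM for ALDOA and 3.42 CPM for ALDOC, against 106 CPM for GPI and 328 CPM for TPI1. In GENCODE release 29, 82.6% of the bases of the main ALDOA transcript also lie in exons of an overlapping gene on the same strand, AC093512.2. That gene is a row of the count table as well, with 1.38 to 2.38 CPM. Whether reads in exons shared by 2 genes were counted for either is not given in the sources used here, so the level of ALDOA may be understated and its place below other enzymes was not tested.

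LDHA, which turns pyruvate into lactate, was the lactate dehydrogenase with the most reads in these tumours, with the same caution for LDHB. LDHA (chromosome 11, 18394563 to 18408425) had 1073, 1106 and 894 CPM proximally and 1046, 909 and 981 CPM distally. LDHB, which favours the reverse reaction (chromosome 12, 21635342 to 21657842), had 41.7, 39.7 and 33.8 CPM proximally and 38.9, 38.1 and 36.2 CPM distally. LDHA made up 93.8% to 94.7% of the pair per kilobase in all 6 libraries. For LDHB, 64.6% of the bases of the main transcript are shared with AC010197.2, a row of the table with at most 5 reads, so the share of LDHB may be understated. The main LDHA transcript shares no exon base with another gene in that annotation.

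Lactate export was read almost only from SLC16A1. SLC16A1, the monocarboxylate transporter MCT1 (chromosome 1, 112911847 to 112956196), had 365, 261 and 308 CPM proximally and 408, 350.1 and 335 CPM distally. Its lowest value was in proximal 2, the library also low in SLC2A3. SLC16A3, the exporter MCT4 of strongly glycolytic cells and a known HIF target (chromosome 17, 82217934 to 82240086), had 1.74, 1.06 and 0.808 CPM proximally and 0.925, 1.44 and 0.549 CPM distally. Those values rest on 9 to 45 reads, and SLC16A3 made up 0.148% to 0.431% of the pair per kilobase. SLC16A7, a related monocarboxylate transporter, had at most 0.837 CPM.

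Pyruvate dehydrogenase kinases keep pyruvate out of the mitochondria, and PDK1 is a known HIF target. PDK1 (chromosome 2, 172555373 to 172724312) had 98.5, 108 and 89.2 CPM proximally and 88.3, 67.5 and 86.8 CPM distally, without overlap but with proximal 3 and distal 1 next to each other. PDK3 had 101, 152 and 114 CPM proximally and 107, 89.2 and 114 CPM distally, highest in proximal 2 and lowest in distal 2. The order of the pair per length depended on the length used, since the main PDK1 transcript in GENCODE is 14193 bases long with a coding length of 1308. PDK1 made up 9.80% of the pair by transcript length and 43.2% by coding length. PDK2 had 5.31 to 8.86 CPM in 5 libraries and 19.9 CPM in distal 3, and PDK4, an isoform abundant in muscle, 2.07 CPM in distal 3 and at most 0.220 CPM elsewhere. Of the main PDK2 transcript, 61.4% of the bases lie opposite exons of SAMD14, whose reads cannot be told apart without strand.

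**Figure D2:**
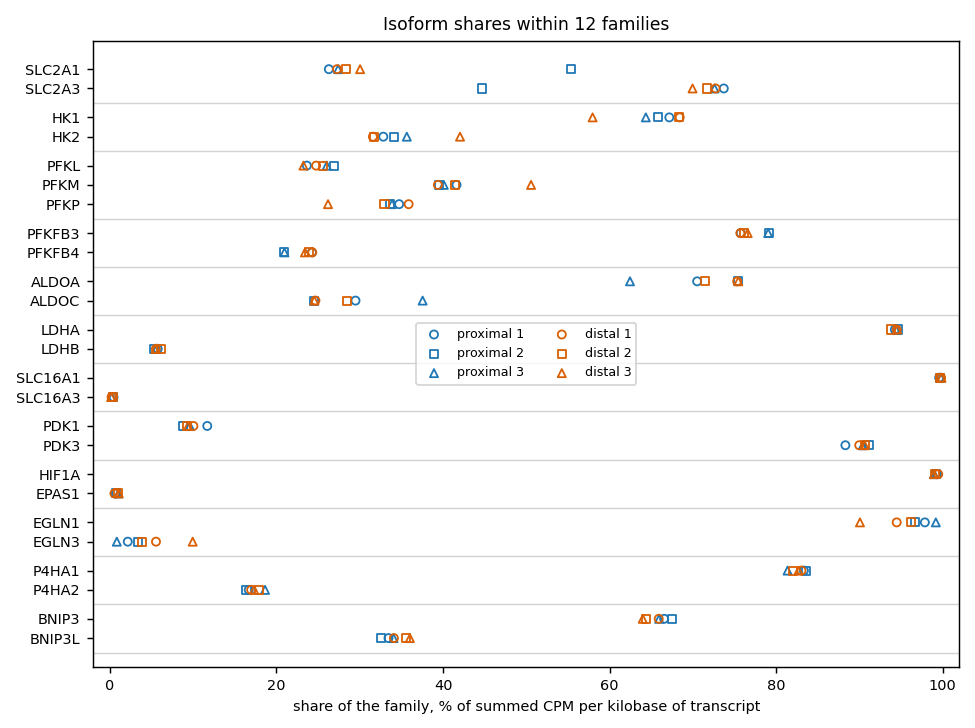
Share of each isoform in its family, as a percentage of the family's summed CPM per kilobase of transcript, for 12 families and 6 libraries (blue proximal, orange distal). LDHA, SLC16A1 and HIF1A make up over 93% of their pairs in every library, SLC2A3 and SLC2A1 change order in proximal 2, and PFKM is highest in distal 3 at 50.6%.

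Of the hypoxia-inducible factors, HIF1A was the α subunit with the most reads, while EPAS1 (HIF-2α) and HIF3A (2.35 to 4.82 CPM), the other α subunits, were low in every library. HIF1A (chromosome 14, 61695513 to 61748258) had 149, 155 and 154 CPM proximally and 147, 144 and 151 CPM distally, the narrowest spread of the tested members, with a highest value 1.08 times the lowest. EPAS1 (chromosome 2, 46297407 to 46386697) had 1.39, 1.57 and 2.11 CPM proximally and 1.06, 1.81 and 2.13 CPM distally, from 24 to 47 reads. Its 95% Poisson interval in distal 1 was 0.677 to 1.57 CPM and in distal 3 it was 1.49 to 2.97 CPM, and such intervals cover counting error only. ARNT, the partner of the α subunits, had 203 to 235 CPM.

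VHL, which marks hydroxylated HIF for removal, had 144 to 170.1 CPM with overlap of the groups. EGLN1, generally held to be the main HIF prolyl hydroxylase, had 13.8, 17.4 and 14.0 CPM proximally and 13.8, 13.6 and 15.9 CPM distally. EGLN2, a hydroxylase of the same family and not a member, had 23.2 to 30.2 CPM. EGLN3, a hydroxylase whose gene is itself a known HIF target, was counted 3, 5 and 1 times in proximal and 7, 5 and 11 times in distal libraries, at most 0.671 CPM. These counts were too few to enter the test.

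Of the HIF targets outside glycolysis, CA9 and EGLN3 were nearly unread while BNIP3, P4HA1 and KDM3A were plentiful. CA9 (carbonic anhydrase IX, a widely used marker of hypoxic tumour cells, chromosome 9, 35673928 to 35681159) had 1 read in proximal 1 and 0 in the other 5 libraries. A count of 0 allows up to 0.183 CPM in distal 3 and 0.124 to 0.138 CPM in the other 4, at 3 counts per library. Of the main CA9 transcript, 39.7% of the bases lie opposite exons of ARHGEF39, whose reads cannot be told apart without strand.

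BNIP3 and BNIP3L, which direct mitochondria to autophagy, were both read. BNIP3 (chromosome 10, 131967684 to 131981923) had 279, 329 and 251 CPM proximally and 266, 224 and 255 CPM distally, and BNIP3L 156 to 200.4 CPM. BNIP3 has 39 processed copies named after it in GENCODE, so its reads are uncertain. Their log2 ratio, BNIP3L over BNIP3, was higher by 0.12 in distal tumour, without overlap of the groups. Proximal 3 (-0.618) and distal 1 (-0.615) all but met.

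The collagen prolyl hydroxylase P4HA1 (chromosome 10, 73007217 to 73096866) had 272, 326 and 263 CPM proximally and 277, 233 and 225 CPM distally. P4HA2 had 64.0, 75.2 and 71.0 CPM proximally and 66.6, 59.9 and 55.4 CPM distally, and P4HA1 made up 81.4% to 83.6% of the pair per kilobase. KDM3A, a histone demethylase, had 205, 231 and 198 CPM proximally and 207, 164 and 225 CPM distally.

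DDIT4, which restrains mTORC1 under stress (chromosome 10, 72273924 to 72276036), had the widest swing among members above 20 CPM apart from SLC2A3. DDIT4 had 83.4, 119 and 86.9 CPM proximally and 74.4, 53.4 and 87.0 CPM distally, highest in proximal 2 and lowest in distal 2. Of its main transcript, 48.5% of the bases lie opposite an antisense gene, DDIT4-AS1.

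The secreted factors were highest in distal 3. VEGFA, the main angiogenic ligand, had 84.5, 85.6 and 95.4 CPM proximally and 90.0, 83.2 and 107 CPM distally, and the groups overlapped. ADM (adrenomedullin, a vasodilator peptide, chromosome 11, 10305073 to 10307397) had 7.43, 4.75 and 6.64 CPM proximally and 10.4, 5.89 and 11.2 CPM distally, lowest in proximal 2. NDRG1, a stress-responsive gene often used in hypoxia signatures, was low at 8.24 to 11.8 CPM. ANKRD37 had 8.32, 8.22 and 7.00 CPM proximally and 6.56, 6.38 and 5.37 CPM distally, which did not overlap, and 37.6% of its main transcript lies opposite UFSP2.

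Many members had proximal 2 as the highest library or distal 2 as the lowest, while the order of the other libraries varied. Proximal 2 was the highest library for 21 of the 38 tested members (55.3%), against 16.6% of all 13382 tested genes. Distal 2 was the lowest for 15 members (39.5%), against 11.6% of all tested genes. Both held for 12 members (31.6%), against 2.25% of all, namely SLC2A1, HK2, PFKFB3, PFKFB4, PDK1, PDK3, HIF1A, EGLN1, BNIP3, BNIP3L, KDM3A and DDIT4. Members of a pathway are not independent of each other, and the list was chosen with earlier results of these data known. The 2 libraries are also of different regions, so these counts are a description.

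The other genes of both pathways were counted in the same way. Of 53 other tested hypoxia genes 16 were highest in proximal 2 and 15 lowest in distal 2. Of 36 other tested genes of glucose metabolism 4 were highest in proximal 2 and 5 lowest in distal 2. Over all tested genes these shares were 16.6% and 11.6%. Distal 3 was most often the highest library, for 21 of the other hypoxia genes and 12 of the other glucose genes. It was so for 3591 of all 13382 tested genes as well. Proximal 2 and distal 2 were not among the libraries with many muscle reads, with summed marker levels of 60.8 and 49.1 CPM. The Schwann cell markers summed to 64.8 CPM in the former and 126 CPM in the latter, and their part in these counts was not tested.

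**Figure D3:**
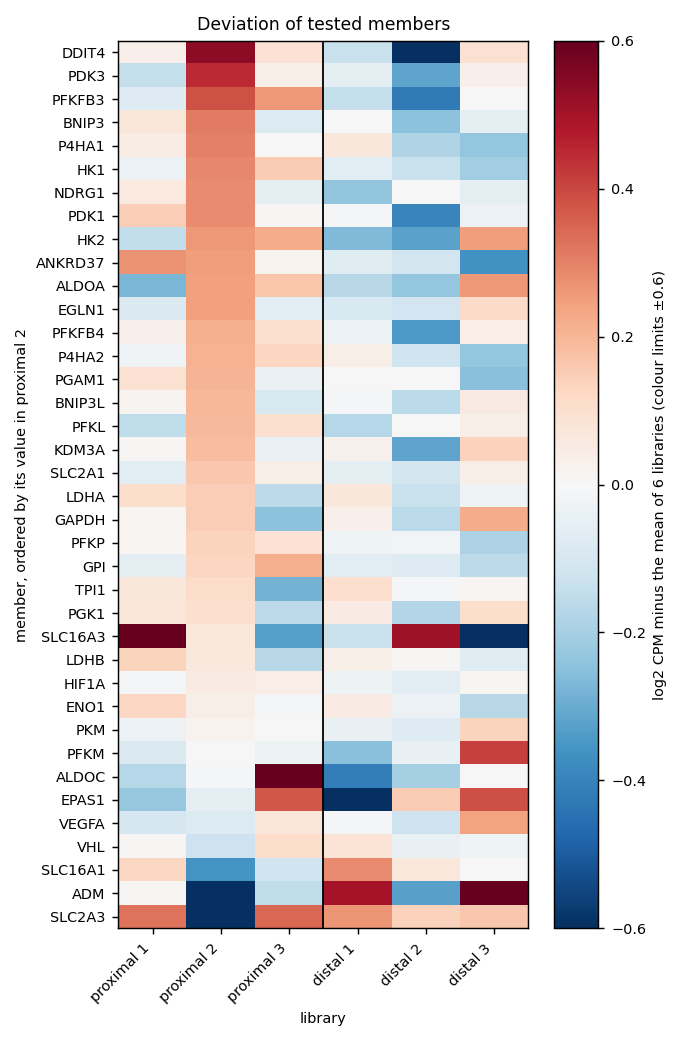
Log2 CPM of each of the 38 tested members minus its mean over the 6 libraries (red above, blue below, colours limited to ±0.6), with members ordered by their value in proximal 2. Most of the upper rows are red in proximal 2 and blue in distal 2, while SLC2A3, ADM and SLC16A1 at the bottom are lowest in proximal 2.

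Against that spread, no member passed the test of region. By the quasi-likelihood test of edgeR, with p adjusted after Benjamini and Hochberg over 13382 genes, 0 of 38 members and 0% of all genes were called, and the smallest adjusted p among members was 0.9997. At an unadjusted p under 0.05 there were 3 members (7.89%), HK1, PFKFB3 and PDK1, against 1.33% of all genes, and all 3 were lower in value in distal, against 0.665% of all genes. DESeq2 called 0 members, with 5 at an unadjusted p under 0.05, where 231 of all 17081 genes lay. Limma-voom called 0, with 3 members and 170 of 13382 genes at that level. The edgeR count at that level was 0 without proximal 2 (126 of all 13612 genes tested). It was 1 without proximal 2 and distal 2 (215 of 13509 genes). It was 6 without proximal 1 (488 of 13613) and 6 without distal 3 (279 of 13539). Without proximal 3 it was 4 (243 of 13562), without distal 1 it was 5 (235 of 13608) and without distal 2 it was 2 (305 of 13597). The count over all genes thus moved between fits as well.

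Values were lower in distal tumour for 29 of the 38 members (76.3%), against 48.4% of all tested genes. The median log2 fold change was -0.10 over the members (mean -0.11) and 0.00 over all tested genes. With proximal 2 and distal 2 both left out, 23 of 38 members were lower and the median was -0.03. With proximal 3 and distal 3 both left out, 33 were lower and the median was -0.15, and without proximal 1 the median was also -0.15 with 27 lower. The groups did not overlap for 5 members with lower values in distal (13.2%, against 3.1% of all tested genes), which were HK1, GPI, PFKP, PDK1 and ANKRD37. They did so for 0 members with higher values, against 3.19% of all.

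The sizes were small. HK1 had 135 ± 15.1 CPM proximally and 112 ± 5.36 CPM distally (SD, n = 3 each), 1.21 times lower in distal or -0.28 (SE 0.10) on the log2 scale. PFKFB3 had 154 ± 24.5 and 118 ± 17.1 CPM, or -0.38 (SE 0.14) on the log2 scale, moving to -0.17 without proximal 2 and distal 2. PDK1 had 98.6 ± 9.48 and 80.9 ± 11.6 CPM, or -0.29 (SE 0.12), moving to -0.17 without distal 2 and -0.10 without proximal 2 and distal 2. Each of these 3 had an adjusted p of 0.9997 by edgeR's quasi-likelihood test, and between 0.9987 and 1 over the alternatives.

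The next 7 members by p had 95% intervals that included 0. Their log2 fold changes were -0.20 for GPI, -0.23 for P4HA1, 0.54 for ADM, -0.21 for P4HA2, -0.43 for DDIT4, -0.36 for ANKRD37 and -0.20 for BNIP3, each with an adjusted p of 0.9997 by edgeR. ADM, at 6.27 ± 1.37 CPM proximally and 9.18 ± 2.88 CPM distally, was the only one of the 10 with a higher value in distal. DDIT4 was at -0.25 without proximal 2, -0.26 without distal 2 and -0.08 without both, or -0.66 without proximal 3 and distal 3. P4HA1 was at -0.13 without proximal 2 and -0.09 without proximal 2 and distal 2, and BNIP3 at -0.09 and -0.02. BNIP3 was at -0.31 and GPI at -0.11 without proximal 3 and distal 3. SLC16A1 was at 0.23 (SE 0.13), which was 0.11 without proximal 2, 0.14 without distal 1 and 0.35 without proximal 1.

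The 95% intervals stayed inside 2-fold in both directions for 34 of the 38 members (89.5%), against 84.0% of all tested genes, and inside 1.5-fold for 28 (73.7%, against 69.1%). The 4 members with wider intervals were SLC2A3, ALDOC, SLC16A3 and ADM. For HIF1A the interval ran from -0.21 to 0.11, for PKM from -0.19 to 0.21 and for LDHA from -0.30 to 0.17.

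**Figure D4:**
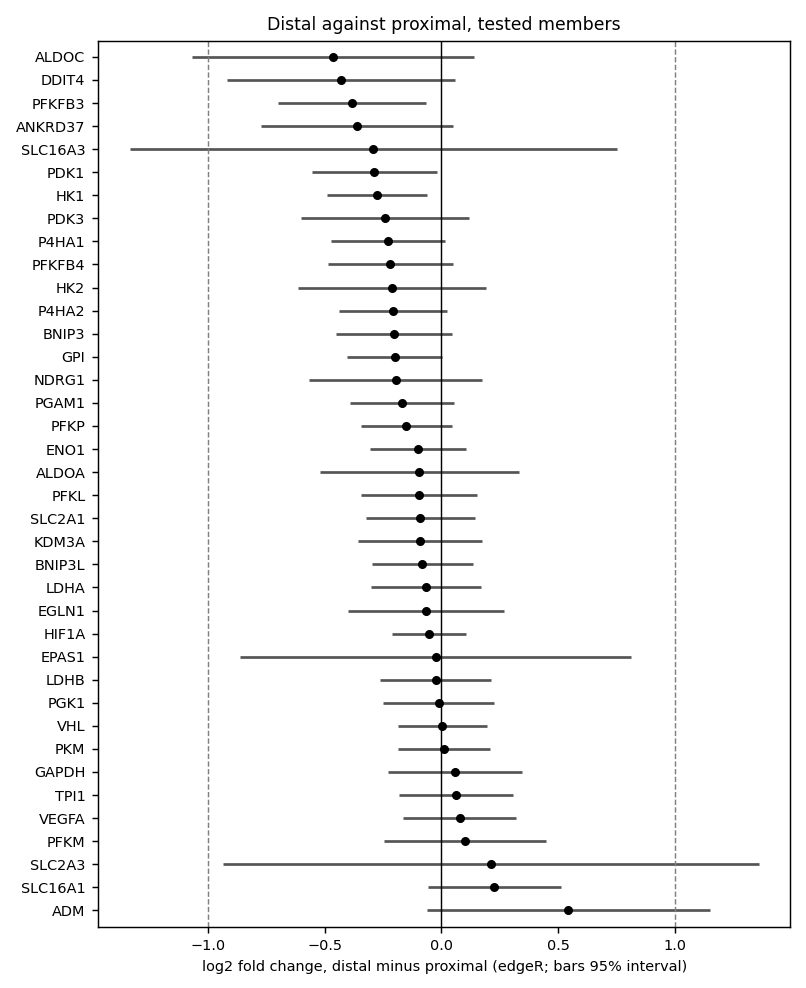
Log2 fold change, distal minus proximal, of the 38 tested members (points) with 95% intervals from edgeR's quasi-likelihood fit (bars); dashed lines mark 2-fold. Of the 38 points 29 lie below 0, and the intervals of HK1, PFKFB3 and PDK1 alone leave 0 out before adjustment.

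For isoform choice the test used could not reach a p under 0.05. Of 13 log2 ratios of isoform counts, compared by an exact two-sided permutation test, the smallest p was 0.1, which is the least that 3 against 3 libraries can give, and the smallest adjusted p was 0.65. It was reached by BNIP3L over BNIP3 (0.12 higher in distal) and by EGLN3 over EGLN1 (1.78 higher, from 1 to 11 reads of EGLN3). LDHB over LDHA differed by 0.04, from -4.74 ± 0.06 in proximal to -4.69 ± 0.10 in distal tumour (SD, n = 3 each), and by -0.017 without distal 2. HK2 over HK1 differed by 0.05 and PFKM over PFKP by 0.23, of which the latter was -0.01 and the former -0.17 without distal 3. SLC2A3 over SLC2A1 differed by 0.46 with proximal 2 and by -0.12 without it.

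**Figure D5:**
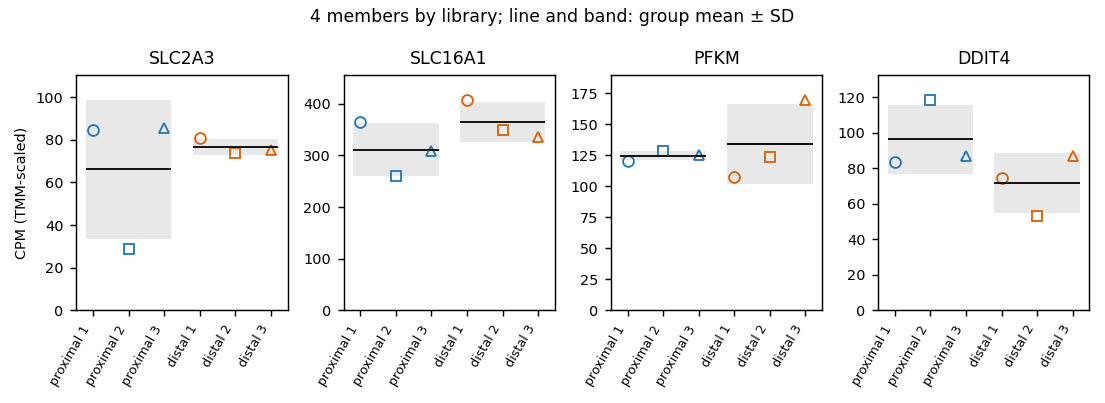
CPM of SLC2A3, SLC16A1, PFKM and DDIT4 by library, with the group mean (line) and SD (band, n = 3) on axes from 0. SLC2A3 and SLC16A1 are lowest in proximal 2, at 28.5 and 261 CPM, PFKM is highest in distal 3, at 169.6 CPM, and DDIT4 runs from 53.4 CPM in distal 2 to 119 CPM in proximal 2.

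The other genes of these pathways also held no call. Of 52 listed genes of glucose and pyruvate metabolism 36 were tested, 18 lower and 18 higher in value in distal tumour, median 0.00 on the log2 scale, and 0 were called in either direction. The lowest p were those of SLC2A4, the insulin-responsive transporter of muscle and fat, at 0.61 (SE 0.31) from 1.82 and 2.79 CPM, and of SLC2A13, at -0.21 (SE 0.14), which was -0.07 without distal 3. Without proximal 3 and distal 3, SLC2A4 was at 0.39. Of 61 listed genes of the hypoxia response 53 were tested, 30 lower and 23 higher, with a median of -0.03 and 0 called. There GYS1 (glycogen synthase) was at -0.25 (SE 0.11), from 41.7 ± 3.73 to 35.0 ± 2.58 CPM (SD, n = 3 each), and ELOB, a partner of VHL, at 0.20 (SE 0.10), which was 0.12 without proximal 3 and 0.07 without proximal 3 and distal 3. Of these 61 genes 9 stayed under 1 CPM in every library.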

How the data were processed

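RNA of 6 tumour samples was made into TruSeq poly(A) libraries and sequenced on an Illumina NovaSeq X Plus, per the labels. The deposited table holds the authors' raw counts by gene symbol. The submitters' processing notes name bcl2fastq, Trimmomatic 0.39, STAR 2.7.3a, featureCounts 2.0.1, DESeq2 and the GRCh38 build. Neither the annotation, the strand setting, the treatment of reads in shared exons nor the host species is given in the sources here. How reads from the host were handled is not known either, so the marker levels of muscle, Schwann and endothelial cells, and member values beside them, may hold such reads.

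Counts were analysed in R 4.3.3 with edgeR 4.0.16 (expression filter by group, TMM scaling, robust quasi-likelihood test, Benjamini-Hochberg adjustment over all genes tested, threshold 0.05), with region and no covariate. The SE is the absolute log2 fold change over the square root of F. Alternatives used DESeq2 1.42.0 and limma 3.58.1, other scalings and filters, a replicate block and left-out libraries. The procedure was tested on simulated counts. Levels per kilobase used the main transcript (APPRIS principal) in GENCODE release 29, which holds 98.4% of the symbols, with coding length as the alternative. Gene positions and promoters are RefSeq's, on GRCh38.p14. The rule gave levels for all members, and fold changes with statistics for the 10 with the lowest p and for 2 genes of each list of other genes. SLC2A3, SLC16A1, PFKM and ENO3 were added after their values were seen. The members and lists were chosen with earlier results of these data known.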

Additional observations from a re-analysis of the deposited data

How the results depend on the processing

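With all 6 libraries, edgeR and limma-voom called 0 genes and DESeq2 called 1 (EDIL3). The edgeR count lay between 0 and 1 with a library left out, while 0 members were called under any alternative. The number of members lower in distal lay between 27 and 32 with a library left out. RLE scaling, library totals alone, the other filters, limma-voom and the replicate block turned the direction of no named member. A fit without proximal 2 and distal 2 was added after seeing the data. In it SLC2A3 was at -0.12, and without proximal 3 and distal 3 PFKM was at -0.10. With a library left out in turn, log2 fold changes ran from -0.15 to 0.44 for SLC2A3, from -0.11 to 0.23 for PFKM and from -0.21 to 1.59 for ENO3. Limma-voom gave ENO3 0.63 and SLC2A3 0.36. Log2 ratios ran from -0.17 to 0.16 for HK2/HK1, -0.12 to 0.78 for SLC2A3/SLC2A1, -0.032 to 0.15 for PFKL/PFKP, -0.012 to 0.40 for PFKM/PFKP, -0.017 to 0.077 for LDHB/LDHA, -0.063 to 0.16 for PDK3/PDK1, -0.19 to 0.29 for EPAS1/HIF1A and -0.023 to 0.088 for P4HA2/P4HA1. With 5 added to each count EPAS1/HIF1A was at 0.026. By coding in place of transcript length the shares were 54.1% for HK1, 79.1% for PFKFB3, 96.4% for LDHA, 43.2% for PDK1, 98.9% for HIF1A, 80.2% for P4HA1 and 56.2% for BNIP3. The causes were not tested beyond the length or library named. Same-numbered libraries did not deviate together in every pair (correlations of deviations from the group means 0.361, -0.114 and 0.182 across genes). Between proximal and distal libraries of different number these correlations ran from -0.319 to 0.132. The numbers were not taken to pair the samples, and whether same-numbered samples share animals is unknown. With the replicate block 0 genes were called, with 286 at an unadjusted p under 0.05 in place of 178, and 29 members were lower.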
